A study of Trichoderma reesei with 15 samples.

Results

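The comparison set mycelium of Trichoderma reesei that lacks pp2A against mycelium that lacks pph5-2, with 4 RNA sequencing libraries of each, 8 of the 15 libraries of the series. The members were taken by their titles, pp2A with the tag DD1 and pph5-2 with the tag DD3. Each strain has its own parent libraries, 2 with the tag DD1 and 2 with the tag DD3, which carry no phosphatase deletion. All these strains, the parents included, are QM6aΔmus53, so both deletion strains lack mus53 as well, a gene of non-homologous end joining. The labels give the same culture for all of them: minimal medium with cellulose, 28 °C, 96 h and constant darkness. The labels explain neither DD1 nor DD3, nor how many clones stand behind a strain. They do not call the replicates independent cultures either, and the p-values here then reflect library-to-library spread, which may be technical. Titles decided the groups where labels conflicted: replicate 1 of Δpp2A has a type label of WT, and the Δpph5-2 libraries have Δpph5 as source name.

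Trichoderma reesei is a filamentous fungus that secretes cellulases, enzymes that break cellulose down to sugars. Protein phosphatases of the PP2A and PP5 types take phosphate off serine and threonine residues and so counteract protein kinases. PP2A is known as an assembly of a scaffold, a catalytic and an exchangeable regulatory subunit, and PP5 as a single chain that carries its own protein-binding repeats. The labels do not say which subunit pp2A is. The series asks how such enzymes take part in cellulase regulation, and the comparison here asks how far the transcript levels of the strains differ, and which strain a difference belongs to. The deposited table pairs its gene identifiers with no gene names, and 0 of them matched the reference gene table, so no cellulase gene can be named and few identifiers are printed.

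Library totals were 7862390 to 11134647 counts in Δpp2A and 8990198 to 13572121 in Δpph5-2. Levels are given in CPM, a gene's counts relative to a fixed library total after TMM scaling, which corrects for differences in library composition. Each strain lacked the transcript of its own candidate for the deleted gene, which the labels do not identify. TrG1101W (coding length 846 bases) had 0, 0, 0 and 4 counts in the Δpp2A libraries and 303, 435, 315 and 320 counts in the Δpph5-2 libraries. The Δpph5-2 mean was 340-fold the pooled Δpp2A level, with a 95% counting interval of 133 to 1247. TrE0027W (1455 bases) had 397, 292, 376 and 291 counts in Δpp2A and 0 counts in each Δpph5-2 library, at least 462-fold lower against a floor of 3 counts over the group. The rule picks genes in which the strains lie apart, so this separation is no support for the strain labels. TrE1020W, the candidate for the gene deleted in the pph5 strain, was at 122 ± 6.96 CPM in Δpp2A and at 123 ± 5.97 CPM in Δpph5-2 (SD, n = 4 each). Intervals and floors cover counting error only.

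The Δpph5-2 libraries were less alike than those of Δpp2A. Pairs of Δpp2A libraries correlated across genes at 0.971 to 0.988, with 8 to 123 genes over 4-fold apart. Pairs with Δpp2A replicate 3 had 79, 87 and 123 such genes, and the other pairs 8, 10 and 11. Pairs of Δpph5-2 libraries correlated at 0.949 to 0.988, with 4 to 254 genes over 4-fold apart, and the closest pair was replicates 1 and 2. Replicate 3 of Δpph5-2 correlated at 0.971 with replicate 2 (119 genes over 4-fold apart) and at 0.970 with replicate 4 (139 genes). Within a strain, the median SD of log2 CPM was 0.14 in Δpp2A and 0.21 in Δpph5-2, and 6177 of 8912 genes had the larger SD in Δpph5-2. Libraries of different strains correlated at 0.880 to 0.942, with 311 to 668 genes over 4-fold apart. The parents were less alike than either strain in DD1, where the pair of libraries correlated at 0.901 with 602 genes over 4-fold apart, and in DD3 the pair correlated at 0.961 with 216 such genes. Across the tags, parent libraries of the same number were closer, at 0.972 with 65 genes for replicate 1 and at 0.985 with 34 genes for replicate 2. Genes are not independent replicates, and these correlations are descriptions.

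**Figure D1:**
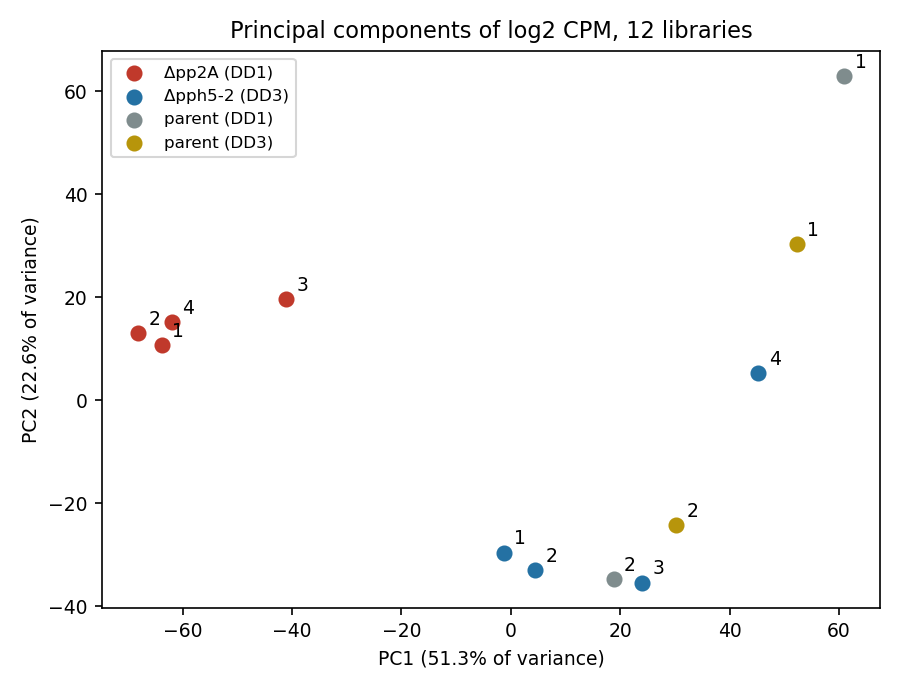
Principal components of log2 CPM over 12 libraries, with PC1 (51.3% of variance) across and PC2 (22.6% of variance) upward, 1 point per library and the replicate number beside it. The 4 Δpp2A libraries lie at the low end of PC1, replicate 3 at -41.1 and the others from -68.2 to -61.9. The Δpph5-2 libraries spread between -1.23 and 45.3 on PC1. Their replicates 1 and 2 lie below all 4 parent libraries (18.8 to 61.0), and replicates 3 and 4 within the parents' range. On PC2, Δpph5-2 replicates 1, 2 and 3 lie at -29.6, -33.1 and -35.4, and replicate 4 at 5.24.

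Replicates 1 and 2 of Δpph5-2 also stood apart in a run of identifiers around the candidate gene, which was noticed after the values were seen. TrE0028C, the identifier after the candidate, had 0 and 0 counts in replicates 1 and 2 and 56 and 43 counts in replicates 3 and 4, against 98 and 105 in the DD3 parent. TrE0022W was at 155 and 148 CPM in replicates 1 and 2, at 27.6 and 26.3 CPM in replicates 3 and 4, and at 27.2 and 33.3 CPM in the DD3 parent. TrE0025W was at 86.9 and 79.4 CPM in replicates 1 and 2, and at 28.5 and 29.2 CPM in replicates 3 and 4. These genes divided the 4 libraries into replicates 1 and 2 and replicates 3 and 4, without overlap, although the candidate TrE0027W was at 0 in all 4.

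Of the 22 tested genes among the 26 identifiers before the candidate, 16 (72.7%) were higher in both replicates 1 and 2 than in both others, against 28.2% of all genes tested. In 9 of the 22 (40.9%), replicates 1 and 2 were above all 13 other libraries of the series, against 3.65% of all genes. Among the 26 identifiers after the candidate, 17 genes were tested, of which 0 lay above all 13 others and 2 lay below. The libraries were divided after seeing the data, so these counts are a description with no test. The cause was not tested, and the labels do not say whether replicates 1 and 2 came from another clone than replicates 3 and 4. The counts of calls are therefore also given below without each pair.

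**Figure D2:**
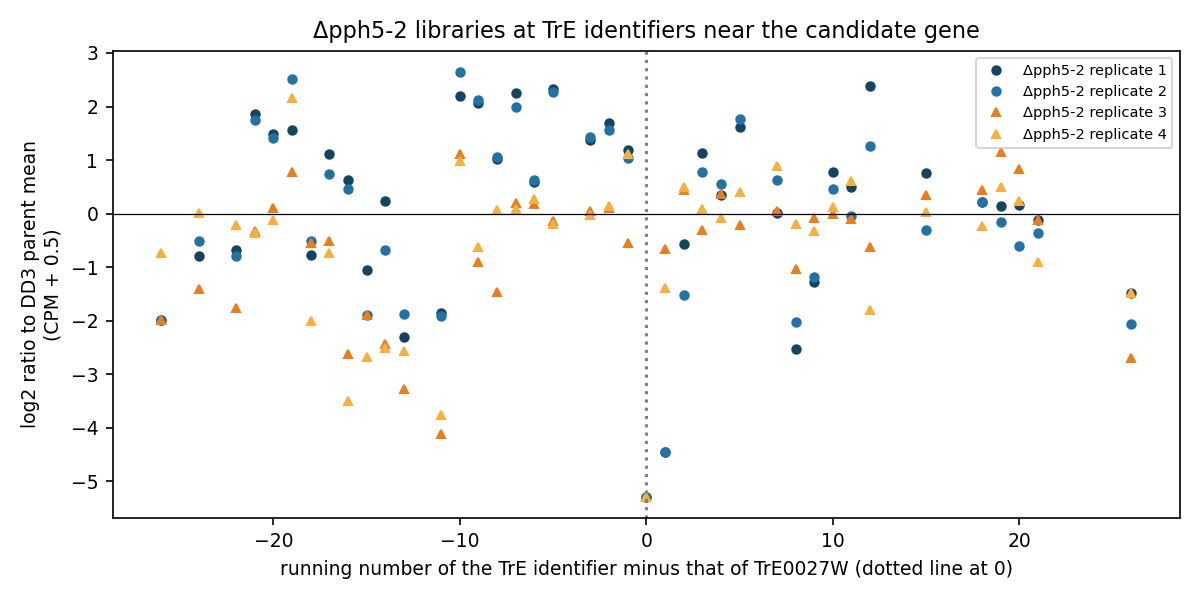
Levels in the 4 Δpph5-2 libraries as log2 ratio to the mean of the 2 DD3 parent libraries (0.5 CPM added to both), by running number of the TrE identifier counted from TrE0027W, which lies at 0. At TrE0022W and TrE0025W, before the candidate, circles (replicates 1 and 2) lie above triangles (replicates 3 and 4), and at TrE0028C, 1 step after it, circles lie below.

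The identifiers numbered directly before and after TrG1101W were compared between the strains. TrG1100C was at 52.3 ± 4.73 CPM in Δpp2A and 47.3 ± 2.29 CPM in Δpph5-2 (SD, n = 4 each), and was not called (log2 difference 0.14, SE 0.13, adjusted p = 0.493 by edgeR). TrG1102C was at 98.6 ± 24.8 and 245 ± 21.6 CPM (SD, n = 4 each), lower in Δpp2A (log2 difference -1.31, SE 0.16, adjusted p = 1.54e-04 by edgeR). Its 4 Δpp2A libraries lay below every Δpph5-2 library. They were at 116 and 124 CPM in replicates 1 and 2 and at 80.0 and 75.0 CPM in replicates 3 and 4. These pairs did not overlap in this gene. Over all genes the Δpp2A libraries did not divide in this way. Pairs with replicate 3 had 79, 87 and 123 genes over 4-fold apart, and the other pairs 8, 10 and 11. Both genes were chosen for their numbers after the candidate was known.

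Between the strains 1788 of 8912 genes tested differed (20.1% called) at an adjusted p under 0.05 in edgeR's quasi-likelihood test. Of these, 809 were higher in Δpp2A (9.08% of all tested) and 979 lower (11% of all tested). Differences of at least 2-fold were seen in 415 higher and 458 lower ones. Of the calls, 119 higher and 101 lower genes differed at least 8-fold, and 35 and 9 at least 32-fold. Genes under 1 CPM in the parents enter these counts. Their 74 higher calls had a median log2 difference of 3.38 and their 29 lower calls one of -3.53. Of these calls, 69 and 25 passed the filter on low counts only through the deletion libraries. No direction is therefore read from the largest differences. In 1724 of the 1788 genes (96.4%) the 8 libraries did not overlap between strains, against 35.3% of all genes tested (17.9% with Δpp2A above and 17.5% with Δpp2A below). The call compares these same libraries and so selects for genes that do not overlap. Scaling by library size alone moved the median log2 difference of all genes from -0.01 to 0.17. It called 1222 genes higher and 554 lower, so that 68.8% of calls were higher, against 45.2% with TMM. Without Δpph5-2 replicates 3 and 4 the count was 891, and without replicates 1 and 2 it was 1645.

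The named genes with the largest increases in Δpp2A, chosen among the genes that the parent check below gives to this strain, were nearly silent in Δpph5-2. TrG0789C (3792 bases) was at 289, 392.02, 284 and 412 CPM in the Δpp2A libraries and at 1.43, 0.496, 0.342 and 0.172 CPM in the Δpph5-2 libraries. The parents were as low as Δpph5-2, with 1.39 and 0.710 CPM in DD1 and 0.880 and 1.06 CPM in DD3. Its log2 difference was 9.15 (SE 0.47, adjusted p = 1.37e-07 by edgeR), and 9.07 (SE 0.87, adjusted p = 1.25e-04 by edgeR) after the parents' difference was taken off. TrA1907C (2280 bases) was at 408, 442, 306 and 493 CPM in Δpp2A and at 2.35, 1.06, 0.685 and 0.172 CPM in Δpph5-2. All Δpp2A libraries were over 100-fold above all Δpph5-2 libraries in both genes. The log2 difference of TrA1907C was 8.60 (SE 0.63, adjusted p = 2.99e-06 by edgeR), and 7.58 (SE 1.28, adjusted p = 0.00738 by edgeR) with the parents' difference taken off, which was lost without DD3 parent replicate 1 (adjusted p = 0.164).

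Of the 152 lower genes that were given to Δpp2A and met the naming rule, TrE1139W (1371 bases) had the largest difference, with the candidate set aside. It was at 0.393, 0.667, 2.39 and 0.836 CPM in Δpp2A and at 21.1, 22.1, 22.4 and 37.7 CPM in Δpph5-2 (log2 difference -4.55, SE 0.66, adjusted p = 4.86e-04 by edgeR). Its parents spread widely, with 98.7 and 18.9 CPM in DD1 and 76.6 and 42.1 CPM in DD3, all above Δpp2A. With the parents' difference taken off it was -4.53 (SE 1.002, adjusted p = 0.0278 by edgeR). That call was lost on leaving out 1 library in 7 of 15 cases, with adjusted p up to 0.166. It was also lost without Δpph5-2 replicates 3 and 4 (adjusted p = 0.0880) and with a term for the replicate number (adjusted p = 0.0815).

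TrC0624C (1491 bases) was at 1.89, 0.889, 4.62 and 1.78 CPM in Δpp2A and at 43.1, 46.7, 73.1 and 54.4 CPM in Δpph5-2. The log2 difference was -4.53 (SE 0.40, adjusted p = 1.32e-05 by edgeR), and -4.90 (SE 0.63, adjusted p = 0.00131 by edgeR) with the parents' difference taken off. The parents, at 29.6 to 48.5 CPM, lay with Δpph5-2. It kept its call in all 15 fits that left out 1 library.

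Abundant transcripts differed less but with small errors. TrG0492C (792 bases) had the highest mean level of the higher genes that met the naming rule, at 3202, 2821, 2663 and 2962 CPM in Δpp2A and at 1079, 1180, 869 and 877 CPM in Δpph5-2. Its log2 difference was 1.54 (SE 0.11, adjusted p = 2.82e-06 by edgeR), with the parents between 926 and 1060 CPM. TrB0855C (1665 bases) held that place among the lower genes, at 1907, 1459, 2016 and 1653 CPM in Δpp2A and at 3033, 3547, 3766 and 3609 CPM in Δpph5-2. Its log2 difference was -0.99 (SE 0.12, adjusted p = 1.03e-04 by edgeR), and the parents lay between 3300.0 and 4155 CPM. With the parents' difference taken off it was -1.13 (SE 0.20, adjusted p = 0.00876 by edgeR), a call that was lost without DD3 parent replicate 1 (adjusted p = 0.0694). In both genes the Δpph5-2 and parent libraries overlapped, and the Δpp2A libraries lay outside them.

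**Figure D3:**
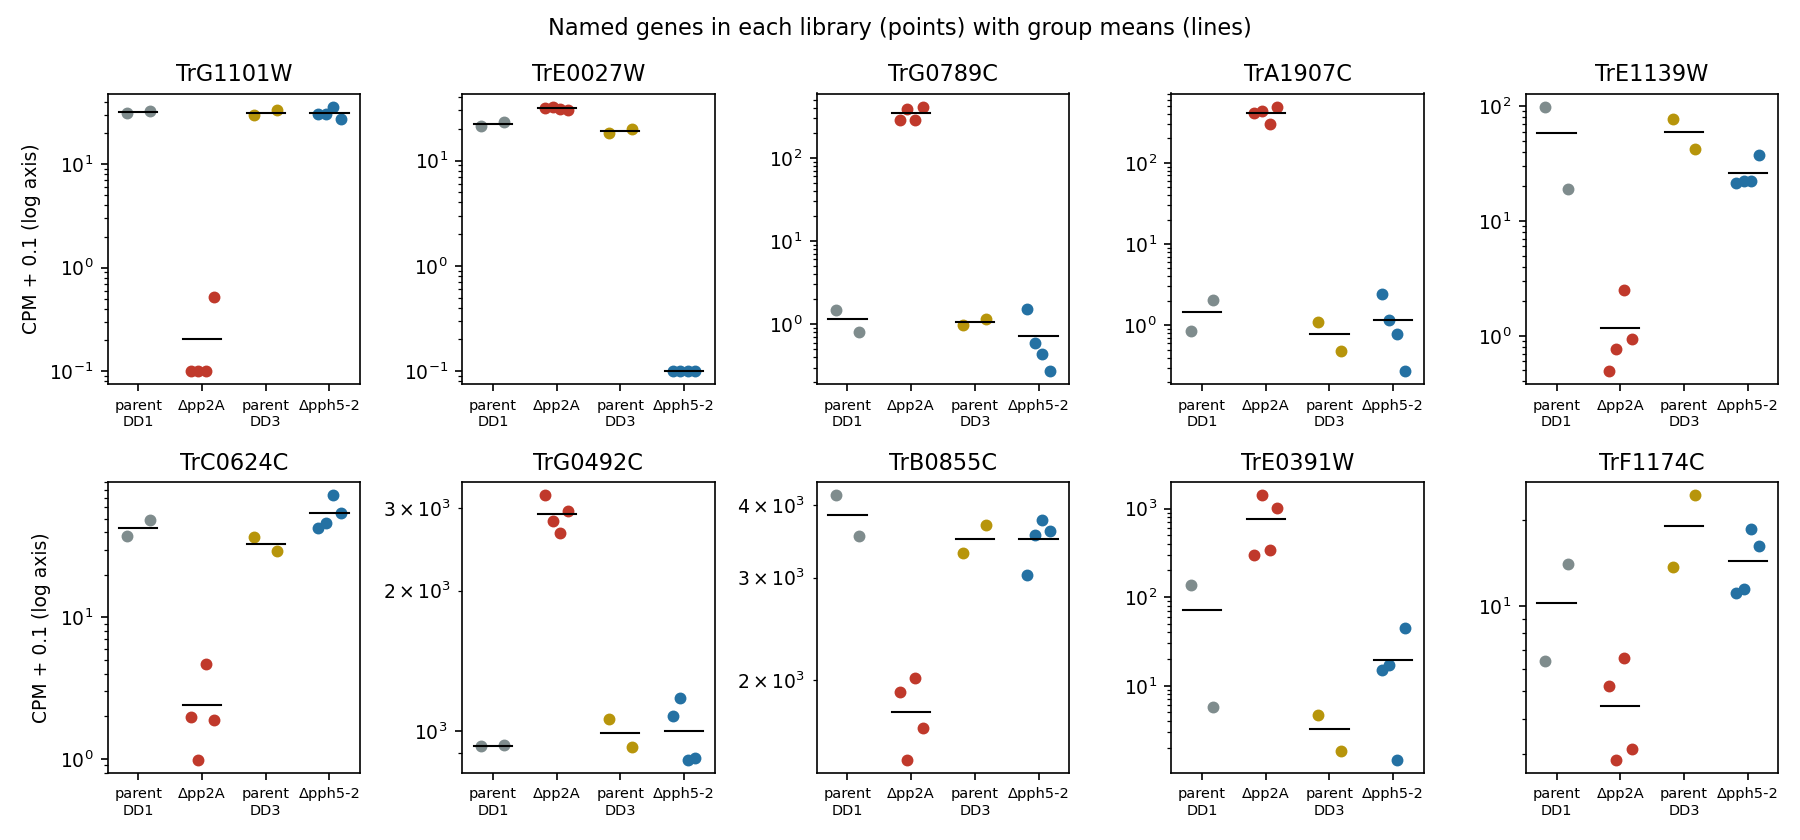
Level of each named gene in every library (points) and the group mean (line), as CPM + 0.1 on a log axis whose range differs between panels, for both strains and both parents. In TrG0789C, TrA1907C and TrG0492C the Δpp2A points lie above all others, and in TrG1101W, TrE1139W, TrC0624C and TrB0855C below all others. In TrE0391W, DD1 parent replicate 1 (136 CPM) lies above DD1 parent replicate 2 (5.68 CPM) and both DD3 parent libraries.

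Differences of all or none were few. At least 10 counts in each Δpp2A library with at most 3 counts summed over Δpph5-2 were found in 6 genes of the table, and the reverse in 1 gene. The 6 include TrE0027W, the candidate for the gene deleted in Δpph5-2. TrD1297W (516 bases), chosen after its values were seen, had 150, 126, 97 and 135 counts in Δpp2A, a sum of 1 count in Δpph5-2 and at most 2 counts in any parent library. The reverse case, TrG1204W (1119 bases), had 0, 0, 2 and 0 counts in Δpp2A, 17, 39, 20 and 36 in Δpph5-2 and 7 to 17 in the parents. With at least 20 counts required the numbers were 3 and 0, and with at least 5 counts they were 10 and 3.

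Since the tags differ between the strains, each gene was set against the difference between the DD1 and DD3 parents. That difference alone called 0 genes (0% called) in edgeR and 0 in DESeq2, with 162 genes at an unadjusted p under 0.05 in edgeR. With a term for the number that parent libraries of both tags share, added after seeing the data, it called 0 as well, with 244 at an unadjusted p under 0.05. The 162 and 244 genes are fewer than this threshold passes by chance where no gene differs, which does not show that the tags are alike. The parents have 2 libraries each, and the median standard error of their log2 difference was 0.27, against 0.19 between the strains. Taking the parents' difference off the direct one left 325 genes (3.65% called), 135 higher (1.51%) and 190 lower (2.13%), with a median standard error of 0.34. This count was 105 and 92 without DD3 parent replicates 1 and 2, 213 and 193 when Δpp2A replicates 1 and 4 were dropped in turn, and 509 without DD1 parent replicate 2. It was 391 without Δpp2A replicate 3, 200 without Δpph5-2 replicates 3 and 4, and 370 without Δpph5-2 replicates 1 and 2. With the term for the parents' number it was 412. The lower count than the 1788 direct calls goes with this larger standard error, whose part in it was not tested. Of the 325 genes, 324 were also direct calls, all with the same sign.

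The remaining gene was TrB0085W, named for that reason after its values were seen. It was at 1.57, 1.56, 1.65 and 1.15 CPM in Δpp2A and at 0.714, 0.921, 1.26 and 0.775 CPM in Δpph5-2, which was not called (log2 difference 0.70, adjusted p = 0.208 by edgeR). Its parents were at 0.252 and 0.203 CPM in DD1 and at 1.98 and 1.26 CPM in DD3, and the difference of responses was 3.47 (SE 0.71, adjusted p = 0.0191 by edgeR). The call rests on the parents, which differ more than the strains do, and the DD1 parent levels come from very few counts.

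A direct call was given to Δpp2A where it was also called, with the same sign, in the difference of responses and against the DD1 parent. By this rule 297 genes (16.6% of the direct calls) were given to Δpp2A, 131 higher and 166 lower. A call went to Δpph5-2 where the difference of responses was called and Δpph5-2 was called in the opposite direction against the DD3 parent. This held for 1 gene, TrE0027W itself, and 1490 direct calls (83.3%) were given to neither. The contrasts share libraries, so this is a sorting of the direct calls and no independent support. Against their own parents, Δpp2A had 1665 calls (18.7% called) and Δpph5-2 had 1 (0.0112% called), with 770 genes at an unadjusted p under 0.05 in Δpph5-2. The 770 genes are more than this threshold passes by chance where no gene differs. The Δpp2A count was 1105 and 1108 on leaving out Δpp2A replicates 1 and 4, and 890 on leaving out DD1 parent replicate 1. The Δpph5-2 count was 5 without either DD1 parent library and 6 without replicate 1 of the pph5 strain. DESeq2 gave Δpph5-2 80 calls, and by the same rule 31 genes went to Δpph5-2 and 589 to Δpp2A. Without Δpph5-2 replicates 3 and 4, edgeR called 80 genes between Δpph5-2 and its parent, and 20 genes went to Δpph5-2. The 20 included TrE0022W, TrE0025W, TrE0028C and other identifiers of the run by which the libraries were divided after seeing the data. Without replicates 1 and 2 only TrE0027W went to Δpph5-2.

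The number given to Δpp2A moved with single libraries. It was 103 and 91 on leaving out DD3 parent replicates 1 and 2, 173 and 196 for Δpp2A replicates 4 and 1, and 449 for replicate 1 of the pph5 strain, which is not compared here but enters the estimate of spread. The number given to Δpph5-2 was 2 without either DD1 parent library and 4 without that pph5 library. Of the 103 and 91 genes, 101 and 89 were among the 297. Without Δpp2A replicate 3 the number given to Δpp2A was 368, which included 271 of the 297. It was 173 without Δpph5-2 replicates 3 and 4 and 351 without Δpph5-2 replicates 1 and 2. With the term for the parents' number it was 374, which included 293 of the 297. DESeq2 included all 297 among its 589. With the parents of both tags as 1 group, and hence no correction for the tags, 1537 genes were given to Δpp2A and 3 to Δpph5-2.

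Genes given to Δpp2A differed more than the rest. The 131 higher genes had a median log2 difference of 2.50 and the 166 lower genes one of -1.69, against 1.04 and -0.92 over all higher and lower direct calls and -0.01 over all genes tested. The same groups differed little between the parents, by medians of 0.02 and 0.15, and little between Δpph5-2 and the DD3 parent, by 0.05 and 0.22. Against the DD1 parent their medians were 2.36 and -1.61. The higher genes stood at a median of 104 CPM in Δpp2A and 14.3 CPM in Δpph5-2, and the lower ones at 30.3 and 101 CPM. In 285 of the 297 genes all 4 Δpp2A libraries lay beyond the 4 Δpph5-2 and the 4 parent libraries, against 23.5% of all genes tested, and the rule itself selects for this. The sizes follow in part from the rule, which asks for 3 calls.

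The 1490 genes given to neither had a median size of 0.82 on the log2 scale, against 1.90 for the genes given to Δpp2A. Of 429 direct calls of at least 4-fold, 286 were given to neither and 142 to Δpp2A. The 286 are a smaller share than the 83.3% of all direct calls that were given to neither. Of the direct calls, 813 were called against the DD1 parent with the same sign and not in the difference of responses. In 999 of the 1788 direct calls (55.9%) the parents differed in the direction of the strains, and in 789 (44.1%) in the opposite one. In 976 (54.6%) the parents' difference was below 20% of that between the strains. These shares stand without those over all genes tested, so nothing is read from them about the tags.

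In 125 direct calls (6.99%) the parents' difference had the same sign and at least 50% of the size of that between the strains, 87 of them higher and 38 lower. Of the 63 higher ones that met the naming rule (a mean of 10 CPM or more in the higher strain, no overlap of the 8 libraries), TrE0391W (180 bases) had the largest difference. It was at 302, 1413, 336 and 1002 CPM in Δpp2A and at 14.9, 17.2, 1.37 and 44.7 CPM in Δpph5-2 (log2 difference 5.28, SE 1.14, adjusted p = 0.00652 by edgeR). Its parents stood at 136 and 5.68 CPM in DD1 and at 4.62 and 1.74 CPM in DD3, and the difference of responses was 0.80 (SE 1.76, adjusted p = 0.885 by edgeR). Without DD1 parent replicate 1 that difference was 4.43 (adjusted p = 0.336), and the direct call was lost without Δpph5-2 replicates 1 and 2 (adjusted p = 0.0662). The strains did not overlap in this gene, but DD1 parent replicate 1 lay above every Δpph5-2 library.

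TrF1174C (1662 bases) had the largest difference of the 29 lower ones that met the naming rule, at 5.11, 2.78, 6.43 and 3.03 CPM in Δpp2A and at 11.01, 11.4, 18.5 and 16.1 CPM in Δpph5-2 (log2 difference -1.70, SE 0.33, adjusted p = 0.00351 by edgeR). Its parents were at 6.30 and 14.003 CPM in DD1 and at 13.6 and 24.4 CPM in DD3. The difference of responses was -0.80 (SE 0.56, adjusted p = 0.570 by edgeR). The direct call was lost without Δpph5-2 replicates 3 and 4 (adjusted p = 0.0524). DD1 parent replicate 1 lay within the range of the Δpp2A libraries of TrF1174C. As the difference of responses was called in neither gene, neither was given to a strain.

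**Figure D4:**
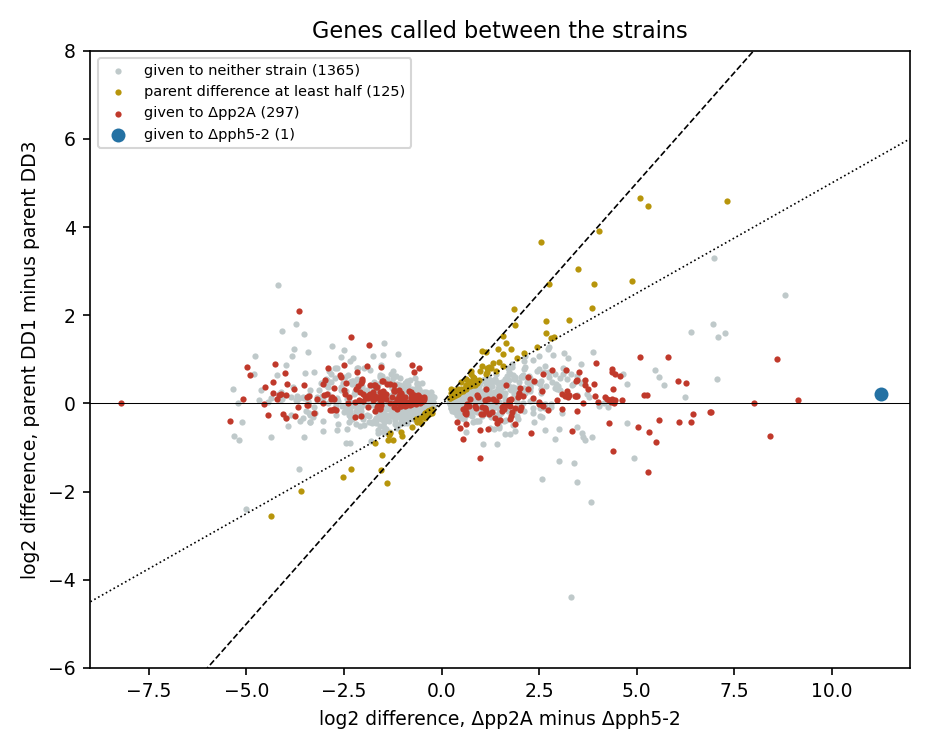
The 1788 genes called between the strains, with the log2 difference Δpp2A minus Δpph5-2 across and that of parent DD1 minus parent DD3 upward, where the dashed line marks equal and the dotted line 50% of the strain difference. The 297 genes given to Δpp2A centre near 0 on the upward axis, with medians of 0.02 (higher) and 0.15 (lower), which the rule favours. The 125 genes with a parents' difference of at least 50% lie at or above the dotted line on the right. On the left they lie at or below it.

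By level in the parents, calls in genes of 1 to 10 CPM were mostly higher in Δpp2A and calls in genes over 100 CPM mostly lower. Of 1765 genes with a mean of 1 to 10 CPM over the 4 parents, 11.8% were higher and 6.63% lower in Δpp2A. Of these, 97.5% would pass the filter on low counts from the parent libraries alone. The 550 genes under 1 CPM had 13.5% higher and 5.27% lower calls, but 494 of them passed the filter only through the deletion libraries, which favours genes that are higher in a deletion strain, so nothing is read from that class. Of 4260 genes from 10 to 100 CPM, 9.04% and 9.86% were, which is near the 9.08% and 11% over all genes. Of 2337 genes over 100 CPM, 6.03% were higher and 17.7% lower, with a class median of -0.08. With library size alone that class had 277 higher and 220 lower genes and a median of 0.09, which is 0.08 below the median of all genes, as with TMM. Its higher calls, 141 in all, came to 87 without Δpp2A replicate 2 or Δpph5-2 replicate 4 and to 89 without Δpp2A replicate 1. The 420 lower calls from 10 to 100 CPM came to 278 and 275 without Δpp2A replicates 2 and 4. Without Δpph5-2 replicates 3 and 4, the class over 100 CPM had 51 higher and 183 lower calls and the class from 1 to 10 CPM had 109 higher ones.

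The parent levels were used to form these classes, so they are not independent of how far a strain lies from the parents. With classes by the mean of the 8 strain libraries, an alternative added after seeing the data, the class from 1 to 10 CPM had 9.76% higher and 8.85% lower, and the class over 100 CPM had 8.77% higher and 15.6% lower. With classes by the 3 pph5 libraries these values were 11.3% and 6.8%, and 5.9% and 16.8%.

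The share of counts differed as well. Genes over 100 CPM in the parents held 76.4, 76.1, 77.0 and 76.1% of the counts in the Δpp2A libraries and 79.7, 80.4, 82.6 and 82.9% in the Δpph5-2 libraries. The parents were at 82.7 ± 0.376% (SD, n = 4). The strains did not overlap (exact permutation test, two-sided p = 0.0286, n = 4 each, the smallest p that 4 against 4 allows). Replicates 1 and 2 of Δpph5-2 lay between the Δpp2A and the parent libraries, and replicates 3 and 4 lay at the level of the parents. Genes from 1 to 10 CPM held 1.88 ± 0.0697% in Δpp2A and 0.978 ± 0.226% in Δpph5-2 (SD, n = 4 each). The exact permutation test gave the same p of 0.0286, but both shares are parts of the same library total and are not separate results. As the classes were formed from the parent levels, the shares also depend on how far a strain lies from the parents. The test does not separate this from a shift by level.

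Calls also differed by coding length. Genes under 600 bases were higher in 5.35% and lower in 9.99% of 1401 genes, and genes over 2400 bases were higher in 12.1% and lower in 8.77% of 1266. The median standard error fell from 0.26 in the shortest to 0.13 in the longest class. Genes over 4-fold apart between the parent libraries of a tag were called in 9.3% of 613 cases, against 20.9% of the other 8299, with median standard errors of 0.76 and 0.18. By the letter of the identifier, calls ranged from 17.4% (A) to 22.5% (G). Of 680 genes called higher whose next number was tested, 21.8% had a next gene that was called higher too, against 9.08% of all genes. For 787 lower genes the next gene was lower in 18.3%, against 11% of all genes. The sources used here do not explain the letters and numbers.

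**Figure D5:**
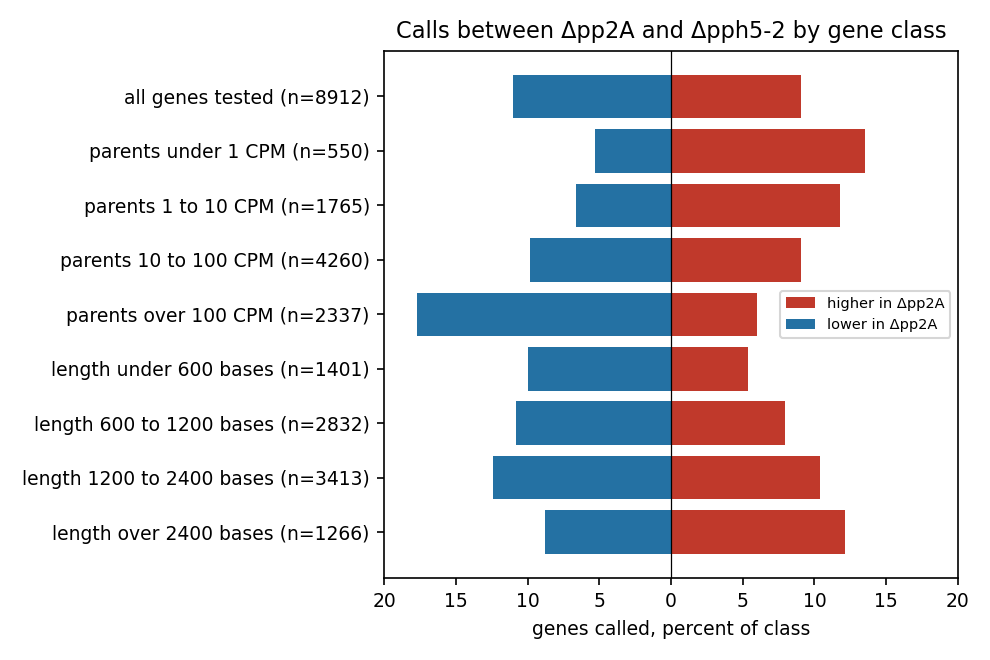
Percent of genes in each class that were called higher (right) or lower (left) in Δpp2A than in Δpph5-2, for all genes tested, for classes by mean level in the 4 parent libraries and for classes by coding length. Among genes from 1 to 10 CPM in the parents 11.8% were higher and 6.63% lower, and among genes over 100 CPM 6.03% were higher and 17.7% lower.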

How the data were processed

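The authors deposited unnormalised read counts per gene with the gene length, 1 column per library, per the file headers. The submitters' processing notes list HISAT2 2.2.1 but give no role for it. Library preparation was stranded after depletion of ribosomal RNA, per the labels' protocols. How counting was set, its strand use, the genome build and the annotation: not given in the sources used here. Reads of overlapping genes or near-identical copies may have gone to either gene. Of the lengths 94.7% are multiples of 3, and they are called coding lengths.

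The table lists 10879 genes, and filterByExpr over the 5 groups left 8912. After TMM scaling, all 15 libraries entered a single robust quasi-likelihood fit of the 5 group means (edgeR 4.0.16, R 4.3.3). The fit was also run on simulated counts, drawn independently for each library. These lack the shared deviations of same-numbered parents and the division of the Δpph5-2 libraries, so no result is drawn from them. Each call is a Benjamini-Hochberg adjusted p under 0.05 over all genes tested, and SE is the log2 difference over the root of the F statistic. Contrasts were Δpp2A against Δpph5-2, each against its own parent, the parents of DD1 against DD3, and the difference of the responses. Named genes averaged 10 CPM or more in the higher strain and showed no overlap of the 8 libraries. They were ranked by log2 difference (first pair per direction) or by mean level (first per direction) among genes given to Δpp2A, and by log2 difference among those with a parents' difference of at least 50%. Identifiers near the candidates were named after their values were seen. Candidates for deleted genes had at least 5 CPM in every other library and under 1% of the parent in the deletion. For principal components and correlations, log2 CPM was taken with 2 as prior count. The comparison, classes and rules were chosen with earlier results of these data known. Pairs of libraries of a strain differed by more than counting error in 26.4 to 63.5% of genes with at least 20 counts in sum, so none looks like 1 library deposited more than once. This does not tell separate cultures from separate preparations of 1 culture. Alternatives were other scalings, DESeq2 1.42.0, other filters, fits with fewer libraries, pooled parents, a block for the replicate number and leaving out each library.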

Additional observations from a re-analysis of the deposited data

Results flagged for a closer look

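Of 32 sets of 4 values from the strains, 2 held a library far from the other 3, and chance gives about 1.6. TrG1101W was at 0.418 CPM in Δpp2A replicate 4, from 4 counts, with 0 counts in the others. TrE1139W was at 37.7 CPM in Δpph5-2 replicate 4, against 21.1 to 22.4 CPM in the others.

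The responses of the strains to their deletions differed in 8 of the 10 named genes by edgeR's test of that difference. The adjusted p was 5.78e-05 for TrG1101W and 5.94e-06 for TrE0027W, the candidates for the deleted genes. It was 1.25e-04 for TrG0789C, 0.00738 for TrA1907C, 0.0278 for TrE1139W, 0.00131 for TrC0624C, 7.78e-04 for TrG0492C and 0.00876 for TrB0855C. The last 6 genes were chosen by a rule that asks for this call, and the candidates by their near absence in a deletion strain, so the list is no separate evidence.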

How the results depend on the processing

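The direct count of 1788 ranged from 1241 to 2177 when 1 library was left out, and was 2827 with only the 8 libraries in the fit. It was 873, 429 and 220 at a minimum of 2, 4 and 8-fold. The difference of responses (325) ranged from 92 to 509 with 1 library left out. The parents' difference (0) ranged from 0 to 2, Δpp2A against its parent (1665) from 890 to 2337, and Δpph5-2 against its parent (1) from 1 to 6. Genes given to Δpp2A (297) ranged from 91 to 449 and those given to Δpph5-2 (1) from 1 to 4. A group left with 1 parent library is assumed to vary like the others. DESeq2 gave 646 for the difference of responses, 80 for Δpph5-2 against its parent, and 589 and 31 genes given to Δpp2A and Δpph5-2. With only the libraries compared, Δpph5-2 against its parent gave 3 calls. Pooled parents gave 3029 and 3 calls against the parent and 1537 and 3 genes given to the strains. Without Δpph5-2 replicates 3 and 4, added after seeing the data, there were 891 direct calls, 200 in the difference of responses and 80 against the parent, with 173 and 20 genes given to Δpp2A and Δpph5-2.

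For TrE0391W the difference of responses was 4.43 without DD1 parent replicate 1, and it turned to -0.14 without DD1 parent replicate 2 and to -0.05 without DD3 parent replicate 1, against 0.80. For single genes, 499 of all values tried kept direction and side of the threshold, 13 lost the call and 2 turned. Of the counts by level class, 186 stayed within 1.5 times and 34 did not. Causes were not tested.

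Deviations of same-numbered libraries of the strains correlated at 0.16, 0.14, -0.06 and -0.02, so the numbers are not taken as pairs. The parents of both tags did deviate together by number (0.74). With a replicate block the direct count was 2329, the difference of responses 217 (TrE1139W lost its call) and the genes given to Δpp2A 202. With a block for the parents only, added after seeing the data, these counts were 2079, 412 and 374, and the parents' difference called 0. The filter on each of the 8 libraries was run for the direct comparison only (1613 calls), and pooled parents allow no difference of responses. With 2 parent libraries per tag, a missing call in the difference of responses does not show that the strains respond alike.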
